A study of Rattus norvegicus with 8 samples.

Results

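The immediate early genes described here are Fos, Fosb, Fosl2, Jun, Junb, Jund, Egr1, Egr2, Arc and Ier2, chosen by symbol. All 10 were found among the 17379 genes measured. RNA was sequenced from dorsal root ganglion neurons of rat embryos (embryonic day 15) after 7 days in microfluidic chambers, in which axons enter a compartment of their own. Every culture received a lentivirus at plating, carrying a short hairpin against Pum2 (shPum2), which encodes an RNA-binding protein, or a control hairpin (shControl). The 4 groups were somatic shControl, somatic shPum2, axonal shControl and axonal shPum2, with 2 libraries each. Strain, sex and the pooling of embryos are not given in the sources used here. The labels name cell bodies together with axons as the source of the somatic samples. They give a standard kit for somatic and an ultra-low input kit for axonal RNA, so the kit cannot be told apart from the compartment. Nothing in the labels says that replicates were separate cultures, so p-values measure the spread between these libraries, which may be technical.

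Immediate early genes are transcribed within minutes of a stimulus, without new protein synthesis. Fos, Fosb and Fosl2 encode Fos proteins, which pair with the Jun proteins (Jun, Junb, Jund) to form the transcription factor AP-1. Egr1 and Egr2 encode zinc finger transcription factors, Arc a synaptic protein whose mRNA is known to enter dendrites, and Ier2 a nuclear protein. In the nervous system several of these genes serve as marks of recent neuronal activity, and Jun is known for its rise in sensory neurons after axon injury. Egr2 is also the factor that drives myelin genes in Schwann cells.

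Rapid induction is known to run through promoter elements such as the CArG box, bound by serum response factor, and the cyclic AMP response element (CRE, TGACGTCA). RefSeq promoter windows of assembly GRCr8, from 250 bases before to 50 bases after the start, were matched for 7 of the 10 genes, namely Fosb, Fosl2, Junb, Jund, Egr1, Egr2 and Ier2. A CArG box lay in 2 of the 7 windows, those of Egr1 and Egr2, and in 1.64% of 33469 windows of all genes. Egr1 had a box beginning 105 bases and another beginning 83 bases before the start, and Egr2 a single box beginning 83 bases before it. The CRE lay in 2 of the 7, Jund and Ier2, and in 1.83% of all windows. Its core TGACG, read on both strands and contained in the CRE, lay in 5 of the 7 (Egr1, Egr2, Ier2, Junb and Jund) and in 21.2% of all windows. The AP-1 site (TGACTCA or TGAGTCA, each the other's reverse complement) lay in 0 of the 7 and in 4.63% of all windows. The site of the Egr proteins themselves (GCGTGGGCG or GCGGGGGCG, both strands) lay in Fosl2 and Jund and in 3.2% of all windows. The letters TATAA, on both strands, lay in 4 of the 7 (Egr2, Fosb, Junb and Jund) and in 26.2% of all windows.

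The 3 stretches below, 60 bases each and 5′ to 3′, show a CArG box (Egr2) or a CRE (Jund and Ier2) in capitals. Jund varied least between somatic libraries, and Egr2 was among the most variable. Ier2 was the gene whose axonal libraries did not overlap between the hairpins, by 18 against 15 counts in the nearest libraries. Of all axonal genes tested, 12% did not overlap with shPum2 lower and 15.8% with shPum2 higher. The stretches lie at chr20:21054482-21054541 (minus strand), chr16:18769952-18770011 (minus strand) and chr19:40399283-40399342 (plus strand) of GRCr8.
Egr2: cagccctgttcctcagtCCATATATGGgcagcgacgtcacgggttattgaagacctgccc
Jund: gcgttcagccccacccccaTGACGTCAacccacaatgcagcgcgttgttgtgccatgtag
Ier2: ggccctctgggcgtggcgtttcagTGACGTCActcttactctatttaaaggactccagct
A match of letters describes the window and is no evidence of binding.

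Somatic libraries held 16725876 to 25821766 counts and axonal libraries 11641947 to 16131611. Levels of a gene in single libraries are given as CPM, counts per 1000000 counts of the library. Pum2 stood at 164 and 160 CPM in the somatic shControl libraries, against 38.2 and 36.5 in the somatic shPum2 libraries. In axons it was 3.25 and 0.443 CPM under shControl, against 1.46 and 7.07 under shPum2, so the hairpins overlapped there. All 14 measured neuronal markers had counts in every library. Replicate 1 of somatic shPum2 stood apart from the other somatic libraries in markers of other cells. The 9 fibroblast markers summed to 8917 CPM in it and to 1787 to 3484 CPM in the other 3. The 12 macrophage and blood markers summed to 279 CPM in it and to 69.9 to 125 CPM in the other 3, and the 9 Schwann and satellite glia markers to 98.8 CPM against 41.0 to 63.9. The 3 markers of dividing cells summed to 58.5 CPM against 12.2 to 24.03. Each of these markers had counts in all 4 somatic libraries. In bulk RNA, fewer cells of a type and less RNA per cell cannot be told apart.

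Jund was the most abundant of the 10 in somatic RNA. Levels of different genes are compared here as TPM, the authors' deposited value per transcript length. Jund had a mean of 361 ± 13.2 TPM (SD over the 4 somatic libraries) and made up 60.0% to 71.5% of the summed TPM of all 10 genes. Jun followed with 62.7 ± 5.61 TPM, then Ier2 with 37.2 ± 9.08, Junb with 27.8 ± 11.8, Egr1 with 21.7 ± 15.8 and Fosl2 with 13.2 ± 5.28 TPM. Fos, the best known activity marker, had 9.44 ± 2.61 TPM and Arc 7.13 ± 0.482 TPM. Egr2 had 1.25 ± 0.798 TPM and Fosb 0.324 ± 0.15 TPM.

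The ranges over the 4 libraries separated Jund from Jun and Jun from Ier2, and likewise Arc from Egr2 and Egr2 from Fosb. Neighbours from Ier2 down to Arc overlapped in range. Compared within the same library, Ier2 lay above Junb and Egr1 above Fosl2 in every somatic library. The order of Junb and Egr1, of Fosl2 and Fos, and of Fos and Arc changed between libraries, so these libraries do not fix it. The TPM of Egr1 and Fosl2 rest on short transcript models (1527 bases for Egr1, 729 and 984 for Fosl2, all multiples of 3, as coding lengths are), whereas Jun, Fosb and Arc have models of 3107, 3251 and 3032 bases. The 2 Jund models, both of 1703 bases, received the same estimated count in every library and were summed.

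**Figure D1:**
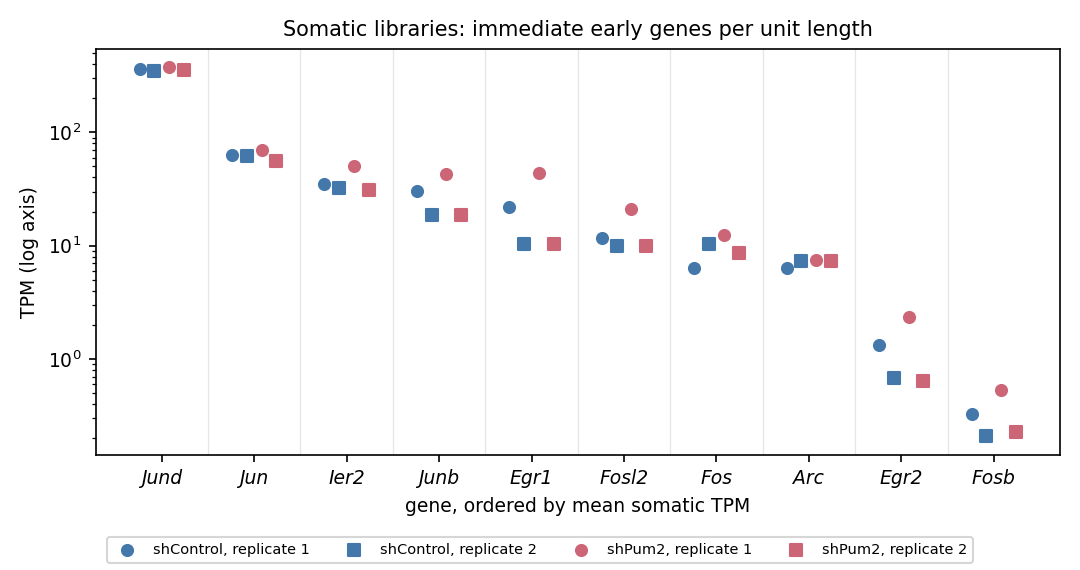
TPM (log axis) of the 10 genes in the 4 somatic libraries, 1 symbol per library, with genes ordered by mean somatic TPM. Jund sits between 345 and 376 TPM in every library, while Egr1 runs from 10.3 to 44.0 TPM with shPum2 replicate 1 on top.

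The first comparison asked whether Pum2 reduction moved these genes in somatic RNA. None of the 10 passed the test. Of their log2 differences 9 of 10 were positive, beside 6504 of all 12346 genes tested. Jund, Jun and Arc differed little between libraries. Most of the others were high in 1 of the 2 shPum2 libraries, so that the groups overlapped.

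Of the Jun genes, Jund stood at 335 and 321 CPM under shControl, against 346 and 333 under shPum2. The log2 difference of shPum2 over shControl was 0.04 with a standard error (SE, derived from the test statistic) of 0.08. For Jun the shControl libraries gave 111 and 110 CPM, the shPum2 libraries 122 and 99.5, and the log2 difference was -0.01 (SE 0.10). Junb was less even. It stood at 30.3 and 18.7 CPM under shControl, against 43.0 and 18.7 under shPum2 (log2 difference 0.31, SE 0.44), with both high values in libraries numbered 1.

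Egr1 had the widest spread of the 10. Its shControl libraries gave 17.9 and 8.59 CPM, its shPum2 libraries 35.9 and 8.52. The shPum2 group thus held both the highest and the lowest value, 4.21-fold apart, and the log2 difference was 0.72 (SE 0.73). Egr2 had the same order of libraries, with 2.21 and 1.16 CPM under shControl against 3.95 and 1.08 under shPum2 (log2 difference 0.55, SE 0.71). This order of the 4 libraries was also that of Jun, Junb, Fosl2 and Ier2, so it was not particular to the Egr genes. The summed markers of fibroblasts, of macrophages and of dividing cells had it too. The part of such cells in the values of these genes was not tested.

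Among the Fos genes, Fos itself gave 5.38 and 8.93 CPM under shControl, against 10.6 and 7.44 under shPum2 (log2 difference 0.31, SE 0.34). Fosl2 gave 4.36 and 3.88 CPM against 7.81 and 3.76 (log2 difference 0.47, SE 0.40). Fosb rested on 9 to 21 counts a library, or 0.598 and 0.388 CPM against 0.988 and 0.426 (log2 difference 0.50, SE 0.63). In each of the Fos genes the groups overlapped, with the highest value in replicate 1 of shPum2.

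Ier2 gave 29.5 and 27.4 CPM under shControl, against 42.3 and 26.0 under shPum2 (log2 difference 0.24, SE 0.23). Arc gave 10.9 and 12.69 CPM against 12.75 and 12.74 (log2 difference 0.10, SE 0.17). By CPM, Arc was the 1 gene of the 10 whose somatic groups did not overlap, with shPum2 higher by a margin far under its SE. The test divides by TMM factors, 0.985 for replicate 2 of shControl and 1.03 for replicate 1 of shPum2. After that division these 2 libraries change order, so the Arc groups overlap. Of the 12346 genes tested in somatic RNA, 11.5% did not overlap with shPum2 higher and 13% with shPum2 lower.

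All 10 passed the filter on low counts, 0 of 10 were called at an adjusted p below 0.05, and every adjusted p was 0.9997 by the quasi-likelihood test of edgeR (Benjamini-Hochberg over all genes tested). Of all genes tested, 0% were called higher and 0.0081% lower, the latter being Pum2 alone. None of the 10 had an unadjusted p below 0.05 in edgeR, DESeq2 or limma voom, and DESeq2 and voom also called 0. The median log2 difference of the 10 was 0.31, beside 0.01 over all genes tested. Without replicate 1 of somatic shPum2 that median was -0.12 and 7 of 10 were negative, with Egr1 at -0.60, Egr2 at -0.59 and Junb at -0.36. Without replicate 2 of somatic shPum2 it was 0.65 and 10 of 10 were positive. Without replicate 1 and without replicate 2 of somatic shControl it was 0.42 and 0.22.

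The authors' deposited table gives smaller somatic log2 fold changes, from -0.0043 for Jun to 0.11 for Ier2, with Egr1 at 0.09 and an SE of 0.08. In the authors' deposited table all 10 had an adjusted p of 0.9999. How those fold changes were estimated is not given in the sources used here.

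**Figure D2:**
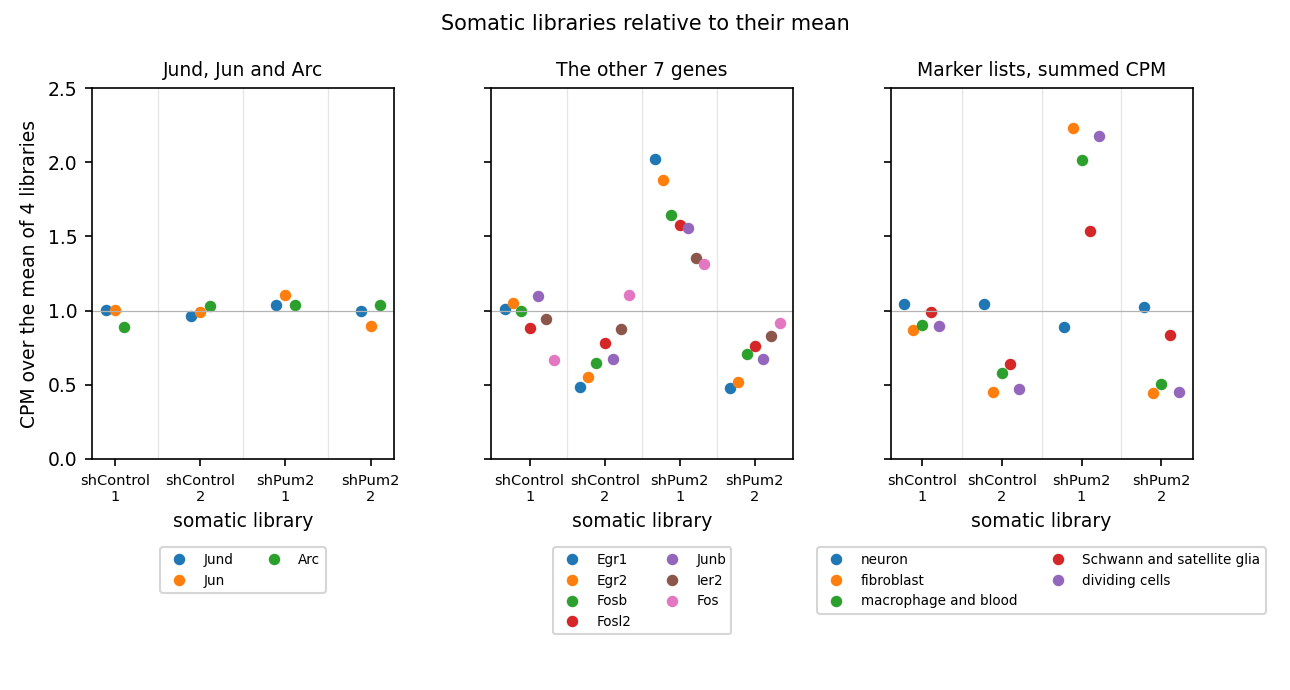
CPM in each of the 4 somatic libraries divided by the mean of the 4, 1 dot per gene or list, for the 3 genes with little spread (left), the other 7 genes (middle) and the summed CPM of marker lists (right). In shPum2 replicate 1 the 7 genes lie at 1.31 to 2.02 times the mean and the fibroblast list at 2.23, while Jund, Jun and Arc lie at 1.04 to 1.11 and the neuronal list at 0.888.

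Replicate 1 of somatic shPum2 was the highest of the 4 somatic libraries for 10 of the 10 genes by CPM, and for 8 of 10 after TMM scaling (a correction for RNA composition). Over all genes tested the same library was highest for 40.7% by CPM and for 33.9% after TMM scaling. By more than 1.5-fold over the next library it was highest for 4 of the 10 on both scales, beside 10.8% of all genes by CPM and 10.2% after TMM scaling. By CPM the excess over the next library was 2.0-fold for Egr1, 1.79-fold for Egr2 and for Fosl2, 1.65-fold for Fosb, 1.43-fold for Ier2 and 1.42-fold for Junb. It was 1.03-fold for Jund and 1.001-fold for Arc.

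Further genes of the same response were counted in 3 lists. Of the 37 other early response genes measured, 36 were tested in somatic RNA. None was called by edgeR, DESeq2 or voom, 29 were positive, and the median log2 difference was 0.23, beside 0.01 over all genes tested. Atf3, a stress-induced partner of Jun that marks injured sensory neurons, was the 1 gene of this list with an unadjusted p below 0.05 in edgeR. Its shControl libraries gave 5.68 and 7.51 CPM, its shPum2 libraries 12.3 and 9.95, without overlap (log2 difference 0.73, SE 0.24, adjusted p = 0.9997 in edgeR). Maff, a small Maf protein, gave 30.2 and 35.9 CPM against 41.9 and 42.0 (log2 difference 0.33, SE 0.13). Neither passed the threshold. Replicate 1 of somatic shPum2 was the highest library for 26 of the 36 by CPM.

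Of 25 upstream kinases and factors, all tested in somatic RNA, 14 were positive, with a median of 0.02. Srf, the factor that binds CArG boxes, gave 56.4 and 59.2 CPM under shControl, against 69.5 and 60.6 under shPum2 (log2 difference 0.16, SE 0.10). Mapk3, the kinase ERK1 of the pathway that activates Srf partners, gave 387 and 409 CPM against 377 and 437 (log2 difference 0.03, SE 0.13). Of 11 AP-1 partners and Egr co-repressors, 9 were tested and 6 were positive, with a median of 0.02. Mafk, a further small Maf gene, gave 21.1 and 19.2 CPM against 30.1 and 21.0 (log2 difference 0.33, SE 0.19). In these 2 lists edgeR, DESeq2 and voom called 0 genes, and 0 had an unadjusted p below 0.05 in any of the 3 tools.

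The axonal comparison put the same question to axons. The genes were far more variable there, and the 2 libraries of a hairpin often lay far apart. Of the 10, 6 passed the filter on low counts (Fos, Jun, Junb, Jund, Egr1 and Ier2), while Fosb, Fosl2, Egr2 and Arc did not. None of the 6 was called.

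**Figure D3:**
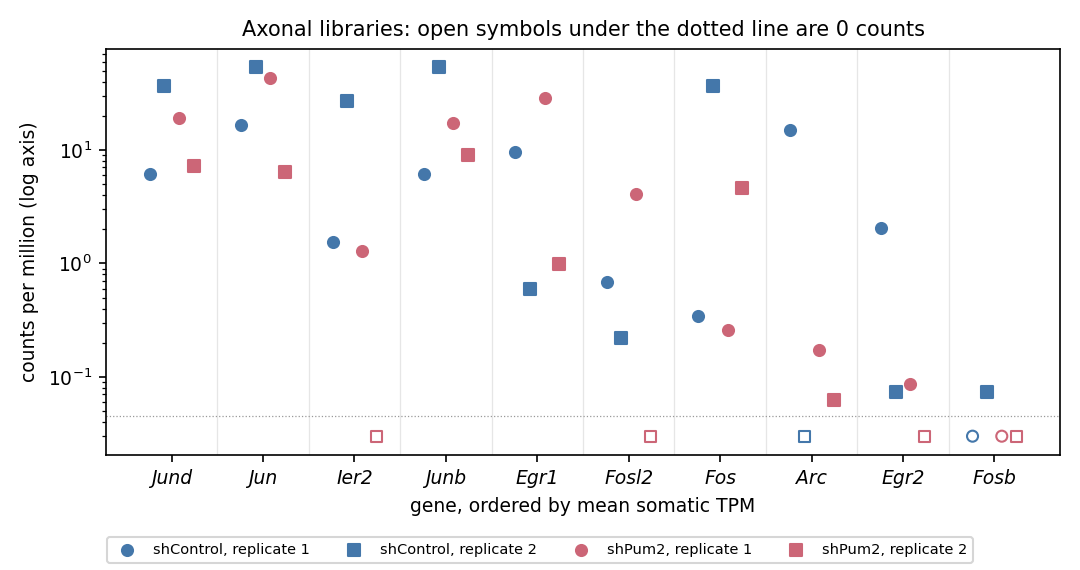
CPM (log axis) of the 10 genes in the 4 axonal libraries, 1 symbol per library, with 0 counts drawn as open symbols under the dotted line. The 2 libraries of a hairpin often lie at opposite ends, as for Fos under shControl (0.342 and 36.3 CPM).

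The Jun genes had counts in all 4 axonal libraries. Jun gave 16.7 and 53.4 CPM under shControl, against 42.7 and 6.38 under shPum2. Junb gave 6.08 and 53.6 CPM against 17.2 and 8.99, and Jund 6.08 and 36.3 CPM against 19.0 and 7.19. In each, replicate 2 of shControl was highest, replicate 1 of shPum2 second, and the groups overlapped. Over all 8517 axonal genes tested, by CPM, replicate 2 of shControl was highest for 29.1% and replicate 1 of shPum2 for 35.1%. The log2 differences of shPum2 over shControl were -0.80 (SE 1.55) for Jun, -1.34 (SE 1.75) for Junb and -0.89 (SE 1.84) for Jund. Meg3, a long non-coding RNA known to stay in the nucleus, ranged from 1212 to 1318 CPM in somatic libraries. In axons it was highest in the same 2 libraries, with 8.21 and 94.0 CPM under shControl against 104 and 4.71 under shPum2. What part such RNA has in the Jun values was not tested.

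Fos gave 0.342 and 36.3 CPM under shControl, that is 4 and 491 counts, against 0.258 and 4.59 CPM under shPum2 (log2 difference -2.77, SE 2.72). Ier2 gave 1.54 and 27.1 CPM under shControl, against 1.29 CPM and 0 counts under shPum2. A count of 0 allows up to 0.186 CPM in that library, the level of 3 counts, by counting error alone. Ier2 was the 1 gene of the 10 whose axonal groups did not overlap, with shPum2 lower (log2 difference -4.80, SE 3.10). The nearest libraries of the 2 hairpins held 18 and 15 counts. Of the 8517 genes tested in axons 12% did not overlap with shPum2 lower and 15.8% with shPum2 higher.

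Egr1 was highest in replicate 1 of each hairpin, in axons as in somatic RNA. Its axonal shControl libraries gave 9.50 and 0.591 CPM, its axonal shPum2 libraries 28.4 and 0.992 (log2 difference 1.17, SE 2.48). Fibroblast markers summed to 411 and 214 CPM against 777 and 70.2 in the same order, with Lum at 0 in replicate 2 of shControl. Macrophage and blood markers summed to 2116 and 814 CPM against 2954 and 102, with Itgam at 0 in all but replicate 1 of shPum2 and Ptprc at 0 in replicate 2 of shPum2. Replicate 1 of axonal shPum2 was highest and replicate 1 of axonal shControl second in Egr1 and in both lists. The part of such cells in the axonal Egr1 values was not tested.

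Arc had 176 counts (15.1 CPM) in replicate 1 of axonal shControl and 0 in replicate 2, against 2 and 1 counts in the shPum2 libraries. Egr2 had 24 and 1 counts under shControl, against 1 and 0 under shPum2. Schwann and satellite glia markers summed to 193 and 97.5 CPM, against 148 and 70.2. Of these markers Cdh19 was at 0 in all 4 axonal libraries, Erbb3 in all but replicate 1 of shPum2, Fabp7 in replicate 2 of shControl and S100b in replicate 2 of shPum2. Fosl2 had 8 and 3 counts under shControl, against 48 and 0 under shPum2, and Fosb a single axonal count, in replicate 2 of shControl. Arc and Egr2 were thus highest in replicate 1 of axonal shControl, Fos, Ier2 and the Jun genes in replicate 2 of the same group, and Egr1 and Fosl2 in replicate 1 of axonal shPum2.

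For the 6 tested genes the adjusted p from edgeR (quasi-likelihood, Benjamini-Hochberg) was 0.9998, and 0 of 6 had an unadjusted p below 0.05 in edgeR or voom. Of all axonal genes tested, 0% were called higher and 0% lower. The median of the 6 was -1.12, beside -0.05 over all genes tested. It was 0.21 over the 9 genes tested without replicate 2 of axonal shControl, and -2.23 over 8 genes without replicate 1 of axonal shPum2. DESeq2, which fitted all 10, called 0 and gave unadjusted p-values of 0.0198 for Arc and 0.0208 for Ier2, with adjusted p-values of 0.208 and 0.215. In the authors' deposited table Arc had a log2 fold change of -4.66 and Ier2 of -4.12, with adjusted p-values of 0.205 and 0.215. With counts under 3 raised to 3, the 2 libraries of axonal shControl differed more than 4-fold for 5 of the 6 genes, beside 46.6% of all axonal genes tested. Those of axonal shPum2 did so for 4 of the 6, beside 43.6%.

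In the lists of related genes edgeR, DESeq2 and voom likewise called 0 between the hairpins in axons. Over all 8517 axonal genes tested 4111 were positive (median -0.05). Of 26 other early response genes tested 9 were positive (median -0.98), of 22 upstream genes 10 (median -0.24) and of 6 partners 2 (median -0.28). None of these list genes had an unadjusted p below 0.05 in edgeR or voom, and DESeq2 had 2, 3 and 0. Srf, with the smallest edgeR p of the upstream genes, gave 3.25 and 8.20 axonal CPM under shControl, against 0.515 and 0.124 under shPum2 (log2 difference -4.36, SE 2.51). Klf6, an injury-responsive zinc finger factor, gave 106 and 288.5 CPM against 159.5 and 44.9.

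Axonal and somatic RNA were then compared within each hairpin. Jund was the 1 gene called, as lower in axons under shPum2. Its 4 axonal libraries, at 6.08 to 36.3 CPM, lay far below its 4 somatic libraries, at 321 to 346 CPM. Under shPum2 the log2 difference of axonal over somatic RNA was -3.29 with an SE of 0.86 (adjusted p = 0.0347 by edgeR). Under shControl it was -2.40 with an SE of 0.83 and did not pass (adjusted p = 0.0726 by edgeR). The difference between these 2 values was -0.89 with an SE of 1.11 (adjusted p = 0.941 by edgeR), so the hairpins were not shown to differ. Among markers of other cells, some of macrophages were called higher in axons, while those of fibroblasts were mostly not called. The 12 macrophage and blood markers summed to 102 to 2954 CPM in axonal and to 69.9 to 279 CPM in somatic libraries. Of these 12, edgeR called 6 higher in axons under shControl, among them Aif1 (log2 difference 6.89) and C1qb (4.90), and 3 under shPum2 (Aif1, Fcer1g and Tyrobp). The 9 fibroblast markers summed to 70.2 to 777 CPM in axonal and to 1787 to 8917 CPM in somatic libraries. With scaling by total counts, as in CPM, the median log2 difference over all genes tested was -2.34 under shControl and -2.03 under shPum2. Of all genes tested edgeR called 18.5% lower and 9.41% higher under shControl, and 16.2% and 8.45% under shPum2. Of the 9 fibroblast markers it called 1 lower under shControl (Fn1) and 0 under shPum2. The part of such cells in the differences between compartments was not tested.

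The Jund calls depend on which libraries are in the fit, as did the calls over all genes tested. The number of all genes called under shPum2 fell without any 1 of the somatic libraries, and rose without replicate 1 of axonal shPum2. The shPum2 call was lost without any 1 of the 4 somatic libraries or of the 2 axonal shPum2 libraries, with adjusted p-values from 0.0804 to 0.141 in edgeR and log2 differences from -3.53 to -3.02. A further fit took the replicate number as a block within each compartment. Its contrast between compartments is the fitted difference at replicate 1, not an average over replicates, so it does not test the call. Under shPum2 that fit gave Jund a log2 difference of -3.54 (adjusted p = 0.114 in edgeR), and 0 of all genes tested were called. Under shControl the log2 difference of Jund was -1.56 without replicate 1 and -4.15 without replicate 2 of axonal shControl. The medians over all genes tested in those fits were -2.72 and -1.25. Jund thus lay above the median in the former fit and below it in the latter.

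The size of these differences depends on the scaling. With TMM scaling the median over all 12337 genes tested was -0.75 under shControl and -0.64 under shPum2, and with scaling by total counts it was -2.34 and -2.03. Relative to that median, Jund lay at -1.64 with TMM and -1.61 with total counts under shControl, and at -2.65 and -2.67 under shPum2. With total counts Jund was called under shControl too (log2 difference -3.95, adjusted p = 0.0246 in edgeR).

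Relative to the same median with TMM, Jun lay at 0.66 under shControl and at -0.23 under shPum2. Junb lay at 2.60 and 0.88, and Egr1 at 0.99 and 1.30. The SEs of Jun, Junb and Egr1 ran from 0.87 to 1.74. Ier2, Egr2 and Arc lay above the median under shControl, at 1.31, 1.70 and 1.72, and below it under shPum2, at -3.86, -3.82 and -4.68, with SEs from 1.42 to 2.53. Fos lay at 3.65 and 0.57, and Fosl2 at -0.83 and 0.37. None of these was called, and Fosb did not pass the filter.

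Of the 9 genes tested, edgeR called 0 under shControl, where Jund alone had an unadjusted p below 0.05, and 1 under shPum2. Of all genes tested under shControl 9.41% were called higher and 18.5% lower, and under shPum2 8.45% and 16.2%. DESeq2 called 0 of the 10 under shControl and 3 under shPum2 (Jund, Arc and Ier2), and voom called 0 and 1. By CPM, 5 of the 10 had both axonal shControl libraries below both somatic ones (Fosb, Fosl2, Jun, Jund and Ier2), beside 68.7% of all genes tested. Under shPum2 it was 8 of 10, without Fosl2 and Egr1, beside 69.3%. Fosb is counted in both but did not pass the filter, so it is not part of these shares. None of the 10 lay above in either hairpin, beside 11.5% and 11% of all genes.

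The interaction asked whether the hairpin acted differently in the 2 compartments. Of the 9 genes tested 0 were called, with log2 values from -6.28 for Arc to 1.32 for Fosl2 and a smallest adjusted p of 0.572 in edgeR. None had an unadjusted p below 0.05 in edgeR or voom, and DESeq2 called 0 with 3 below 0.05 (Arc, Egr2 and Ier2). Of all genes tested 0% were called positive and 0% negative by edgeR. Arc turned from -6.28 to 5.14 without replicate 1 of axonal shControl, the library that held 176 of its axonal counts.

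**Figure D4:**
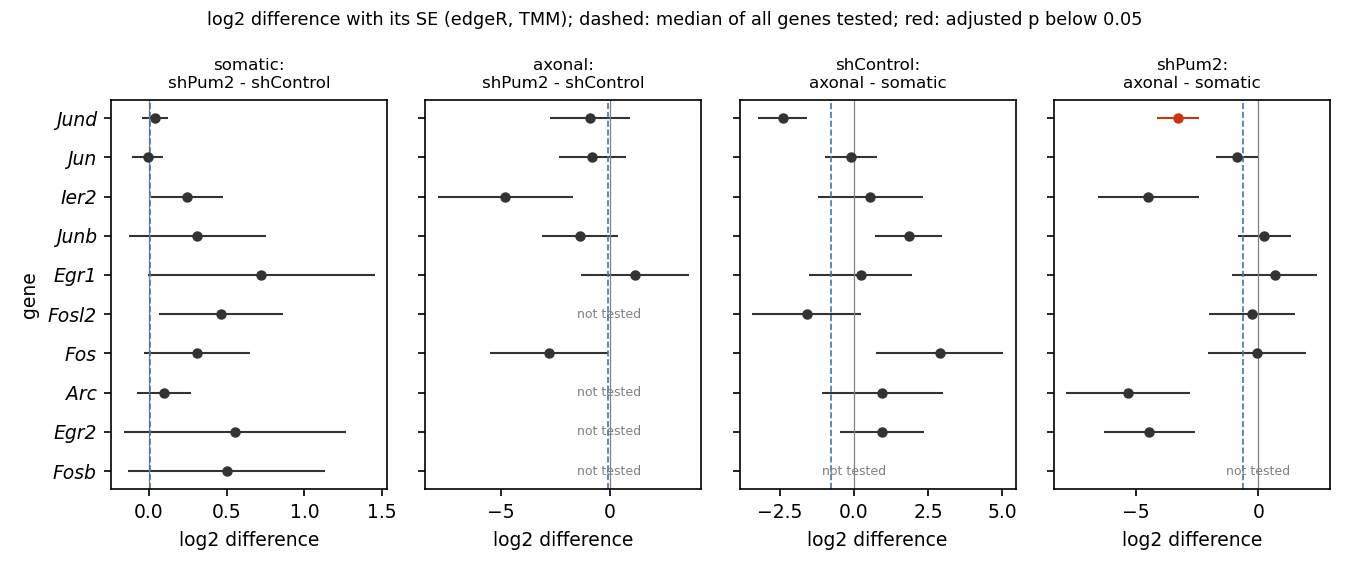
The log2 difference (points) and its SE (bars) of each tested gene in 4 comparisons, each panel with its own scale, with the median of all genes tested as a dashed line and called genes in red. Jund in shPum2 axons against shPum2 somatic RNA (-3.29) is the called gene, and the axonal hairpin bars (SE 1.55 to 3.10) are longer than the somatic ones (SE 0.08 to 0.73).

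In the lists of other early response genes and of upstream genes, too, more genes were called lower than higher in axons. In the partner list 1 was called higher and 1 lower under shControl. Over all genes tested the shares were 18.5% lower and 9.41% higher under shControl, and 16.2% and 8.45% under shPum2. Nothing particular to the lists is read from their counts. The genes named in this paragraph and the next were chosen after their values were seen. Among 36 other early response genes under shControl, edgeR called 1 higher, the kinase Sgk1 (log2 difference 5.48), and 3 lower, Vgf (-7.01), Dusp5 and Egr4. Egr4 had 0 axonal counts under either hairpin. Vgf, a neuropeptide precursor, gave 621 and 499 CPM in somatic RNA, against 0.684 and 2.22 in axons. Under shPum2 edgeR called Sgk1 higher (5.24), and Egr4, Ccn1, Vgf and Dusp5 lower.

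Among 25 upstream genes under shControl, Atf1, a CRE-binding factor, was called higher (3.07), and Mapk8 (-6.57), Mapk10 (-6.34), Crtc1 (-5.81) and Rps6ka2 (-4.49) lower. Mapk8 and Mapk10 encode kinases of the JNK family, which phosphorylate Jun. Mapk8 gave 145.5 and 143 CPM in somatic RNA, against 0.342 and 0.665 in axons. Under shPum2 the genes called were Crtc1, Srf and Mapk8, all lower. Among 9 partners Mafk was called higher (2.59) and Atf7 lower (-6.49) under shControl, and Atf7 was called lower under shPum2 as well. The edgeR fit with the replicate number as a block, read at replicate 1, called none of these genes, and of all genes tested none either. Without either somatic library of the hairpin compared, likewise 0 of all genes were called.

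Genes with the most similar pattern were sought over the 8 libraries by Pearson's r of log2(CPM + 1), among 4905 genes with a mean of at least 4 on that scale. The libraries share compartment, kit and depth, so r is a description. For Jun the nearest were Chd1, Clstn1 and Vps35l (r = 0.997, 0.996 and 0.995). For Egr1 they were Septin2, Igfbp2 and Mmp14 (r = 0.976, 0.966 and 0.963). Igfbp2 gave 87.1 and 26.6 CPM in somatic shControl, against 169.9 and 20.4 in somatic shPum2, the order of libraries seen in Egr1. For Fos the nearest were Smim3, Psme3ip1 and Yipf5 (r = 0.975, 0.968 and 0.968), each highest in replicate 2 of axonal shControl, as Fos was.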

How the data were processed

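For every library the authors deposited estimated counts per RefSeq transcript, TPM (a length-scaled share) and transcript lengths, per the file headers. The submitters' processing notes name kallisto, DESeq2 and Rnor_6.0, without tool versions. The authors' deposited table of each compartment gives a mean normalised signal, log2 fold changes, a test score and p-values.

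Transcripts were named through RefSeq (GRCr8), which matched 17367 of 18321. Estimated counts were summed per gene and rounded. Reads of near-identical genes were divided by the authors' estimate. Tests used edgeR 4.0.16 in R 4.3.3 (quasi-likelihood, TMM, its expression filter, Benjamini-Hochberg at 0.05) on the 4 libraries of a compartment or, between compartments and for the interaction, on all 8. The SE given with an edgeR log2 difference is its absolute value over the square root of the test's F. It is not a fitted SE. The fits were also run on simulated counts, drawn without deviations shared by same-numbered libraries, and nothing here rests on that run. Alternatives were other size factors, total counts, no filter, DESeq2 1.42.0 and limma 3.58.1 (voom). Others were blocking on the replicate number, leaving out each library, 1 transcript per gene and, for hairpins, all 8 libraries. Between compartments, the block gave the fitted difference at replicate 1.

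The genes and lists were chosen with earlier results of these data known. Named from each list were up to 4 genes with the smallest p in a hairpin comparison and the 2 highest in TPM, of which the text gives examples, and, after their values were seen, those called between compartments. The likeness genes were the 3 of highest r. Mrtfa, Mrtfb, Rps6ka5 and Mef2c were not analysed here, and 1 result of the partner list is not reported here.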

Additional observations from a re-analysis of the deposited data

How the results depend on the processing

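None of the 10 genes was called in the hairpin comparisons or the interaction under any alternative run. With groups of 2 libraries, leaving out 1 leaves a lone library with no spread of its own. The spread then comes from the other groups in the fit, and the lone library is assumed to vary like them. Between compartments, with shControl Junb and Arc were also called without axonal shControl replicate 1, and with shPum2 Arc and Fosb without replicate 1 and without replicate 2 of axonal shControl, and Fosl2 without axonal shPum2 replicate 1. Fosb, Egr2, Fosl2 and Arc did not pass the filter on low counts in the axonal comparison.

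The number of all genes called in the somatic comparison (1) was 2 with DESeq2, 0 with limma voom, 0 with all 8 libraries in 1 fit and 0 to 1 with a library left out. In axons it was 6 with no expression filter, 346 with DESeq2 and 0 to 31 with a library left out. Between compartments it was 0 with the replicate block (the difference at replicate 1) for either hairpin, against 3445 and 3046. With a library left out it was 0 to 5539 with shControl and 0 to 4862 with shPum2. The interaction had 627 with DESeq2 and 0 to 713 with a library left out.

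The replicate numbers are not stated to mark shared cultures. Same-numbered libraries deviated together across genes at r = 0.67 in somatic and 0.12 in axonal libraries, With the replicate block the calls were 1 in somatic, 0 in axonal RNA and 0 in the interaction, and Jund with shPum2 had -3.54 (adjusted p = 0.114, edgeR). Between compartments the block fit gives the difference at replicate 1, so its values are not averages over replicates. There Fos (-2.09) and Jun (0.0526) with shControl and Junb (-0.57) with shPum2 turned.

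Total counts turned Jun in the somatic comparison (0.0056), Egr1 (-1.39), Egr2 (-0.67), Arc (-0.65) and Ier2 (-0.99) in axons against cell bodies with shControl, and Junb (-1.24) and Egr1 (-0.59) with shPum2. The RLE size factors and DESeq2 turned Jun with shControl (0.24 and 0.23) and Fos with shPum2 (0.42 and 0.42). Voom turned Egr1 (-0.64), Arc (-2.01) and Ier2 (-0.50) with shControl, Egr1 with shPum2 (-0.10) and Fosl2 in the interaction (-1.04).

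With each library left out in turn, somatic log2 differences ran from -0.01 to 0.75 for Fos, -0.16 to 0.97 for Fosb, -0.11 to 0.87 for Fosl2, -0.13 to 0.10 for Jun, -0.36 to 0.77 for Junb, -0.60 to 1.41 for Egr1, -0.59 to 1.20 for Egr2, -0.0138 to 0.23 for Arc, -0.10 to 0.52 for Ier2 and -0.0738 to 0.78 for Atf1. Axonal ones ran from -6.47 to 2.92 for Fos, -2.28 to 0.21 for Jun, -2.15 to 0.90 for Junb, -1.64 to 0.85 for Jund and -2.19 to 4.27 for Egr1.

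Axonal over somatic differences with shControl ran from -2.78 to 3.95 for Fos, -1.13 to 0.57 for Jun, -0.40 to 2.75 for Junb, -2.85 to 1.13 for Egr1, -2.84 to 1.89 for Egr2, -10.41 to 1.95 for Arc and -2.61 to 1.55 for Ier2. With shPum2 they ran from -3.96 to 1.06 for Fos, -9.34 to 0.67 for Fosl2, -0.22 to 0.87 for Junb and -2.43 to 1.93 for Egr1. Interaction values ran from -6.93 to 2.70 for Fos, -7.77 to 2.26 for Fosl2, -2.05 to 0.24 for Jun, -2.46 to 0.63 for Junb, -1.69 to 0.85 for Jund, -2.66 to 3.47 for Egr1 and -7.28 to 5.14 for Arc. The cause of these turns was not tested.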
